A study of Homo sapiens with 6 samples.

Results

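The nuclear genes for subunits of mitochondrial complexes II, III, IV and V were examined after knockdown of ADAR1 in KYSE410 cells, a human line of oesophageal squamous cell carcinoma. The members were the protein-coding rows of the gene table whose symbols are those of succinate dehydrogenase (SDHA to SDHD), of the cytochrome bc1 complex (names beginning UQCR, and CYC1), of cytochrome c oxidase (names beginning COX4 to COX8) or of ATP synthase (names beginning ATP5F, ATP5M, ATP5P or ATP5IF). This rule found 51 of the 58735 genes in the table, and it used no measured value. Complex II had 4 members, complex III 10, complex IV 17 and complex V 20. The siADAR1 group held 3 libraries of KYSE410 cells with ADAR1 knocked down, and the control group 3 libraries of KYSE410 cells titled NC, whose genotype is given as wild type. All 6 were grown in RPMI with fetal bovine serum and antibiotics, and the labels give no treatment for either group and batch 3 for all. They do not say whether the controls received a control siRNA, so siRNA delivery, off-target effects and ADAR1 loss cannot be told apart in any comparison. Separate cultures are not named in the labels, so the p-values here rest on a spread between libraries that may be technical.

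The respiratory chain passes electrons from nutrients to oxygen and pumps protons across the inner mitochondrial membrane, and ATP synthase uses the returning protons to make ATP. Complex II oxidises succinate and hands electrons to ubiquinone without pumping protons. Complex III passes them from ubiquinol to cytochrome c, complex IV passes them from cytochrome c to oxygen, and complex V is the ATP synthase. All subunits of complex II are nuclear-encoded, whereas complexes III, IV and V also contain subunits encoded in mitochondrial DNA, so that products of both genomes meet in the same assembly.

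Libraries held 15175619 to 16903792 counts in siADAR1 and 15497788 to 17329443 in control. ADAR, the knockdown target, averaged 88.7 ± 9.72 counts-per-million (CPM) in siADAR1 and 443.6 ± 12.1 CPM in control (SD, n = 3 each), a log2 fold change of -2.32 ± 0.09 (SE, edgeR adjusted p 1.06e-08). On the principal component that separated the groups, with 71.3% of the variance, siADAR1 replicate 1 lay beyond the other siADAR1 libraries. On the next, with 11.7%, both libraries numbered 1 lay above 0, at 14.96 in siADAR1 and 36.07 in control, and the others below it. Of 8 squamous epithelial markers, 7 had enough counts to be tested, and their summed level was 737.6 to 808.6 CPM in siADAR1 and 663.7 to 737 CPM in control. Of the 7, KRT6A (-2.24), SFN (-0.68) and KRT5 (-0.54) were lower on the log2 scale, DSG3 (1.54), TP63 (0.48) and KRT17 (0.35) were higher, and KRT17 made up the largest part of the sum. KRT14 was at or near 0 in both groups. The part of these markers in the results was not tested. The 3 leukocyte markers summed to at most 0.0564 CPM in siADAR1 and 0.0673 CPM in control, and the 3 endothelial markers to at most 1.34 and 2.15 CPM. The 4 fibroblast markers summed to 71.7 to 83.5 CPM in siADAR1 and 39.8 to 57.2 CPM in control. COL1A1 and LUM made up nearly all of that sum and were higher in siADAR1, while DCN was at 0 in all libraries and COL1A2 near 0, and their part in the results was not tested.

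Of the 51 members, 44 had enough counts to be tested. At an adjusted p below 0.05 in edgeR's quasi-likelihood test, 29 were lower in siADAR1 (65.9%), 0 were higher and 15 did not pass. The number higher was 0 also at an unadjusted p below 0.05, in DESeq2 and in limma-voom. Over all 15294 tested genes, 25.0% were lower and 26.0% higher, with a median log2 fold change of 0.005, against a median of -0.35 for the tested members. Of the 15 that did not pass, 14 had point estimates below 0, and ATP5ME alone lay above it, at 0.01. Without control replicate 2 the number lower was 20.

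The members were set beside all genes of the same level, since only the most highly expressed genes as a whole shifted downwards. Among all genes that averaged 100 CPM or more, 44.7% were lower with a median of -0.17, and 10 of the 14 members in that range were lower with a median of -0.39. Between 10 and 100 CPM, 27.9% of all genes were lower with a median of 0.01, and 18 of 28 members were lower with a median of -0.32. Below 10 CPM, 12.7% of all genes and 1 of 2 tested members were lower. In 29 members the CPM of the groups did not overlap and lay lower in siADAR1, against 29.7% of all tested genes. The sets of 29 differed in 4 genes: COX7A2 and ATP5PO passed with overlapping groups, and UQCRC1 and UQCR10 did not pass although their groups were apart.

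Complex IV had the highest share of members called. Of its 12 tested members 11 were lower, with a median log2 fold change of -0.41. In complex III 6 of 10 were lower (median -0.35), in complex V 10 of 18 (median -0.29) and in complex II 2 of 4 (median -0.24). The differences between complexes were not tested. Over all tested genes 25.0% were lower. That share was 27.9% between 10 and 100 CPM and 44.7% at 100 CPM or more. Without control replicate 2 the numbers lower were 1 of 4 in complex II, 3 of 10 in III, 8 of 13 in IV and 8 of 18 in V. The summed level of all members was 4324, 4673 and 4690.6 CPM in siADAR1, against 6073.5, 6316.8 and 5828.7 CPM in control. The siADAR1 mean was 75.1% of the control mean, and by complex it was 81.9% for II, 79.4% for III, 69.1% for IV and 74.7% for V. Every siADAR1 sum was below every control sum in each of the 4 complexes. CPM are shares of a library, so fewer cells with the transcripts and less RNA per cell cannot be told apart.

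**Figure D1:**
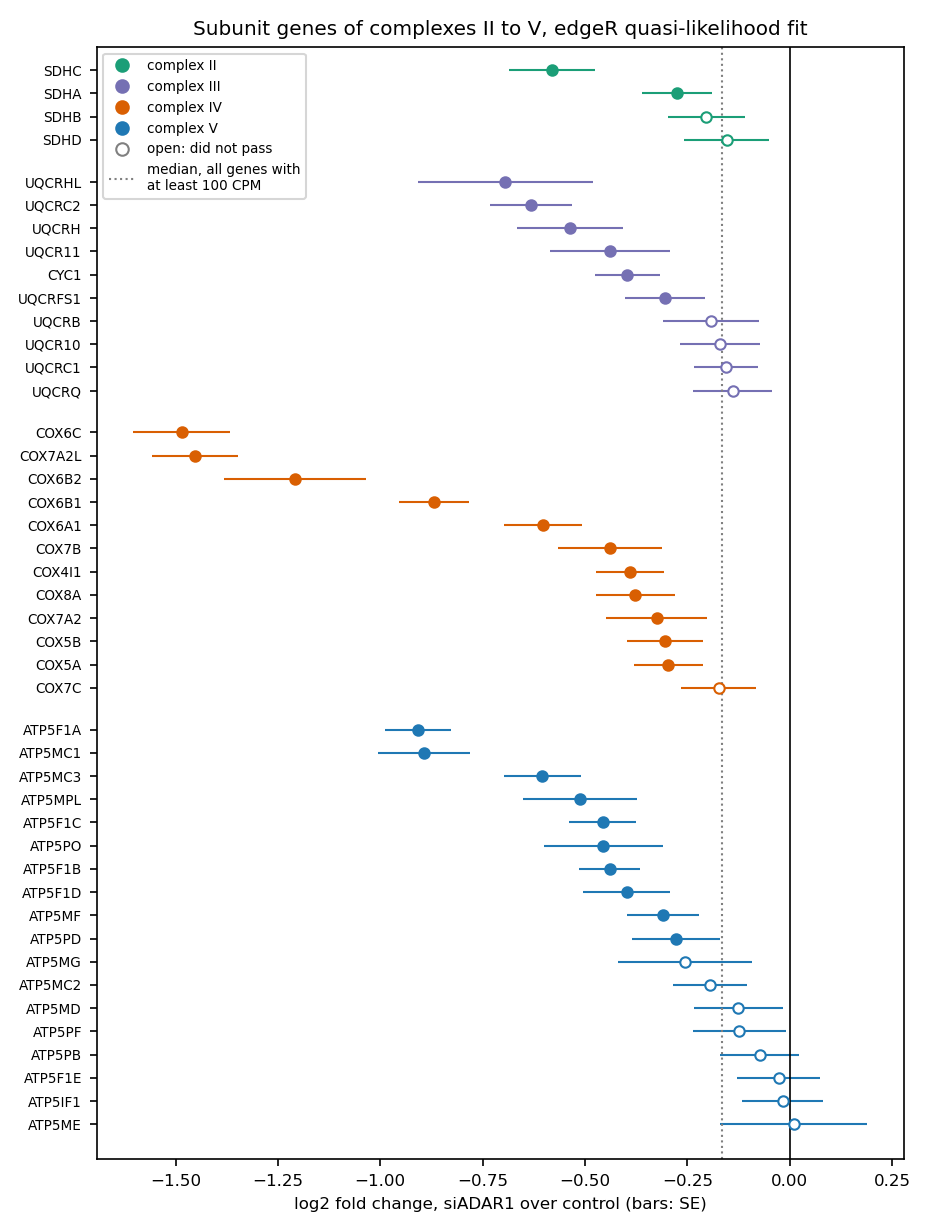
Log2 fold change of each tested member, siADAR1 over control, with bars of 1 SE (x axis) by gene and complex (y axis), filled where the edgeR adjusted p was below 0.05. COX6C at -1.49 and COX7A2L at -1.45 lie farthest left, 29 points are filled, and no filled point lies right of 0.

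The members did not fall by the same amount in the libraries of a group. In 32 of the 44 tested members the lowest siADAR1 value was in replicate 1, and in 28 the highest control value was in replicate 2. Relative to the control mean, the median log2 ratio over the tested members was -0.39, -0.34 and -0.28 in siADAR1 replicates 1 to 3, against -0.02, 0.07 and -0.06 in the controls. For complex IV the same medians were -0.58, -0.40 and -0.42 in siADAR1, against -0.05, 0.06 and -0.02 in control. Without both libraries numbered 1, a setting chosen after seeing the data, 30 members were lower.

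**Figure D2:**
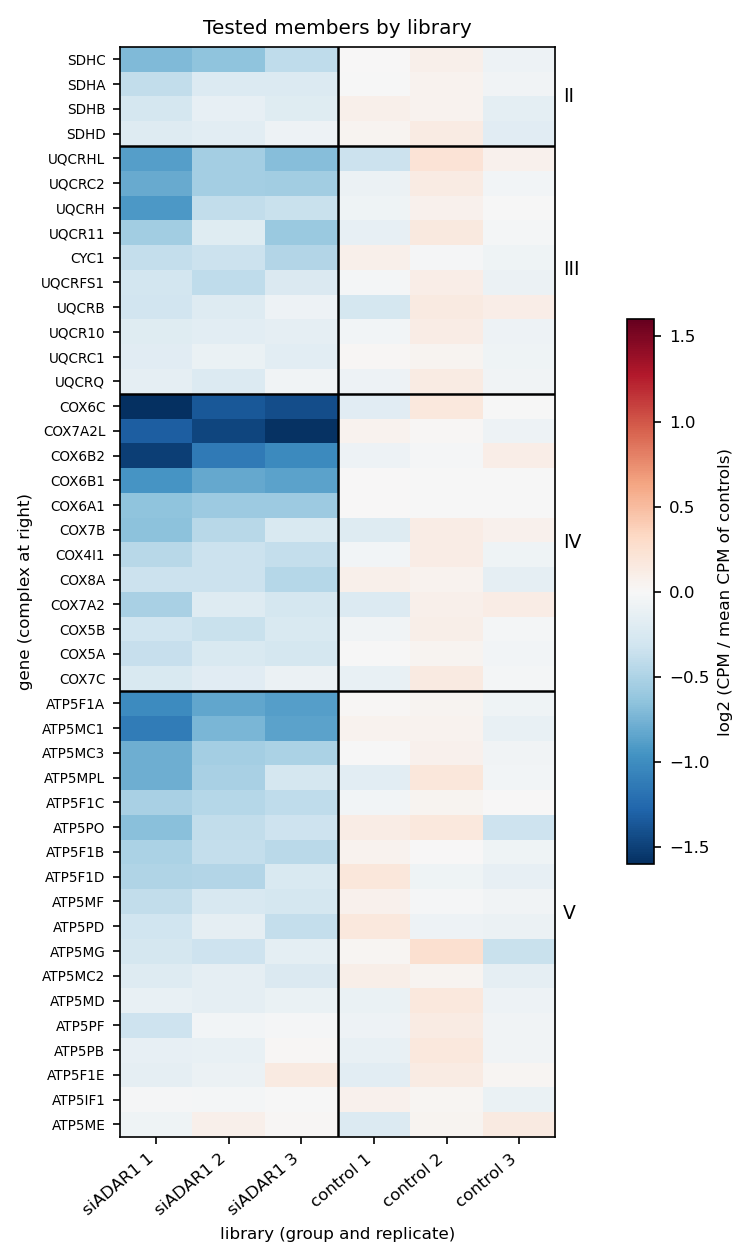
Log2 ratio of each library's CPM to the mean CPM of the controls for the 44 tested members (rows, by complex) in the 6 libraries (columns, siADAR1 at left). Blue marks values below the control mean and red values above it, and the darkest rows are COX6C, COX7A2L and COX6B2 of complex IV.

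Complex II consists of a catalytic flavoprotein, an iron-sulfur subunit and a pair of membrane anchors. SDHC (chromosome 1, 161314257 to 161375340), a membrane anchor, had 47.8, 50.1 and 59.0 CPM in siADAR1, against 78.4, 82.5 and 73.8 CPM in control. The groups were apart, and its log2 fold change was -0.58 ± 0.10 (SE, adjusted p 5.01e-04). SDHA (chromosome 5, 218241 to 256700), the flavoprotein that oxidises succinate, had 133.9, 151.5 and 150.4 CPM in siADAR1, against 175, 183.1 and 169.2 CPM in control, and fell by 0.28 ± 0.09 on the log2 scale (adjusted p 0.016). That call was lost without control replicate 2 (adjusted p 0.0724).

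The other anchor and the iron-sulfur subunit did not pass. SDHB (chromosome 1, 17018722 to 17054170), which carries the iron-sulfur clusters, had 83.6, 92.6 and 89.1 CPM in siADAR1, against 107.6, 106.3 and 91.6 CPM in control. Its groups overlapped at a single pair of libraries, and the log2 fold change was -0.20 ± 0.09 (adjusted p 0.0879; 0.0357 without control replicate 3). SDHD (chromosome 11, 112086773 to 112120013), the second membrane anchor, had 59.5, 61.0 and 65.2 CPM in siADAR1, against 70.9, 75.2 and 60.6 CPM in control (-0.15 ± 0.10, adjusted p 0.231). The count ratio of the anchors, SDHC over SDHD, was 0.803, 0.821 and 0.905 in siADAR1, against 1.10, 1.10 and 1.22 in control, a pair compared after its counts had been seen.

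SDHA has an expressed pseudogene whose row went the other way. SDHAP1 had 73.2, 61.6 and 59.2 CPM in siADAR1, against 35.8, 24.4 and 25.8 CPM in control, a rise of 1.17 ± 0.15 on the log2 scale (adjusted p 2.59e-05). The ratio of SDHAP1 to SDHA counts was 0.547, 0.406 and 0.393 in siADAR1, against 0.204, 0.133 and 0.152 in control. Near-identical copies can share reads, and the sources used here do not say how multiply mapped reads were counted, so both values are uncertain. In all, 28 members had a pseudogene row, 105 rows together, of which 38 had at least 1 count. Apart from SDHA, the pseudogene counts reached at most 9.95% of the counts of a tested member, for COX6A1.

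Complex III is built on redox-active subunits, large core proteins facing the matrix and small accessory subunits. Among the redox subunits, CYC1 (chromosome 8, 144095027 to 144097525), cytochrome c1, had 286.8, 294.1 and 269.7 CPM in siADAR1, against 395.8, 368.7 and 355.1 CPM in control (log2 fold change -0.40 ± 0.08, adjusted p 1.08e-03). UQCRFS1, the Rieske iron-sulfur protein, fell by 0.31 ± 0.10 (adjusted p 0.0187; 0.0891 without siADAR1 replicate 2 and 0.0914 without control replicate 2). All siADAR1 values of both genes lay below all control values.

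The core proteins differed in size of change. UQCRC2 (chromosome 16, 21952660 to 21983660), core protein 2, had 92.3, 111 and 110.3 CPM in siADAR1, against 151.7, 177.5 and 156.6 CPM in control (-0.63 ± 0.10, adjusted p 1.79e-04). UQCRC1, core protein 1, averaged 240.6 ± 6.84 CPM in siADAR1 and 268.0 ± 11.0 CPM in control (SD, n = 3 each) and did not pass (-0.16 ± 0.08, adjusted p 0.111). The UQCRC2 to UQCRC1 count ratio was 0.392, 0.447 and 0.463 in siADAR1, against 0.558, 0.642 and 0.612 in control, again a pair compared after its counts had been seen.

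Among the 5 accessory subunits outside the retrocopy UQCRHL, 2 were lower, against 25.0% of all tested genes. UQCRH (chromosome 1, 46303631 to 46316776), the acidic hinge protein that assists the docking of cytochrome c, had 66.6, 96.2 and 98.3 CPM in siADAR1, against 120.1, 132.6 and 125.7 CPM in control. The siADAR1 replicate 1 value was the lowest, the groups were apart, and the log2 fold change was -0.54 ± 0.13 (adjusted p 4.09e-03). UQCR11 fell by 0.44 ± 0.15 (adjusted p 0.0237), a call lost without siADAR1 replicate 1 (adjusted p 0.0744), siADAR1 replicate 3 (0.108) or control replicate 2 (0.101). UQCRB and UQCR10 did not pass, at -0.19 ± 0.12 and -0.17 ± 0.10, and UQCRB passed without control replicate 1 (adjusted p 8.45e-03). UQCRQ, the member of complex III with the p nearest 1, had 76.5, 73.0 and 81.7 CPM in siADAR1, against 80.2, 93.1 and 81.4 CPM in control (-0.14 ± 0.10, adjusted p 0.242).

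UQCRHL (chromosome 1, 15807169 to 15809348) is an intronless copy of UQCRH. It had 3.89, 4.90 and 4.45 CPM in siADAR1, against 5.62, 8.35 and 7.49 CPM in control (-0.69 ± 0.21, adjusted p 0.0154), a call lost without siADAR1 replicate 1 (0.0548) or control replicate 2 (0.0725). The coding sequences of UQCRHL and UQCRH are 98.6% identical over 276 bases and share an unbroken run of 157 bases, so reads from either can be assigned to the other, and the UQCRHL value is uncertain. The last 120 coding bases from GENCODE 29 transcripts are shown because they hold all 4 differing positions, in capitals.
UQCRHL: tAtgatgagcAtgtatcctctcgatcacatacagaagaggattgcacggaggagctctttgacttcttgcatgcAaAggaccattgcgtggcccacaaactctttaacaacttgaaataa
UQCRH: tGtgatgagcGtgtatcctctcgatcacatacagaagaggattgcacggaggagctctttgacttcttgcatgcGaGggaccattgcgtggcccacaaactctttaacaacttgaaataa

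The nuclear subunits of complex IV surround a catalytic core encoded in mitochondrial DNA. The largest falls among all members were here. COX6C (chromosome 8, 99873200 to 99894062), a small transmembrane subunit, had 34.1, 42.9 and 41.1 CPM in siADAR1, against 97.0, 123.9 and 109.5 CPM in control. The siADAR1 mean was 35.7% of control, with a log2 fold change of -1.49 ± 0.12 (adjusted p 8.84e-07). COX7A2L (chromosome 2, 42333546 to 42425088), a relative of subunit 7A that joins complexes III and IV in supercomplexes, had 32.1, 28.97 and 26.8 CPM in siADAR1, against 83.6, 81.6 and 75.5 CPM in control. Its mean was 36.5% of control (-1.45 ± 0.10, adjusted p 4.40e-07), the smallest adjusted p among the members.

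Subunit 6B, which faces the intermembrane space where complex IV meets cytochrome c, fell in both of its isoforms. COX6B1 (chromosome 19, 35648223 to 35658861) had 61.2, 66.8 and 65.3 CPM in siADAR1, against 118, 117.5 and 117.6 CPM in control (-0.87 ± 0.09, adjusted p 4.40e-06). COX6B2, a testis isoform that is also transcribed in some tumours, had 4.91, 6.37 and 6.87 CPM in siADAR1, against 13.2, 13.7 and 15.0 CPM in control (-1.21 ± 0.17, adjusted p 8.73e-05). Per gene length, COX6B2 made up 2.24% ± 0.295 of the subunit 6B FPKM (fragments per kilobase of gene length, scaled to library size) in siADAR1 and 2.83% ± 0.185 in control (SD, n = 3 each).

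The other isoform families each rested on the common isoform. COX4I1 (chromosome 16, 85798633 to 85807044), the regulatory subunit 4, had 193.8, 208.2 and 202.4 CPM in siADAR1, against 255.4, 285.7 and 251.4 CPM in control (-0.39 ± 0.08, adjusted p 1.59e-03). COX6A1 had 34.6, 36.3 and 36.2 CPM in siADAR1, against 54.7, 53.9 and 54.1 CPM in control (-0.60 ± 0.10, adjusted p 1.80e-04). COX8A had 62.9, 63.0 and 58.2 CPM in siADAR1, against 84.1, 82.7 and 72.3 CPM in control (-0.38 ± 0.10, adjusted p 5.39e-03). The groups of these 3 genes did not overlap. COX7B had 33.0, 38.2 and 43.7 CPM in siADAR1, against 45.0, 56.5 and 54.3 CPM in control (-0.44 ± 0.13, adjusted p 0.0109; 0.0551 without control replicate 2).

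Their tissue isoforms were at or near 0. COX4I2, COX6A2, COX7B2 and COX8C, isoforms of lung, muscle or testis, had 0 counts in all 6 libraries, which allows at most 0.198 CPM in a siADAR1 library and 0.194 CPM in a control library (3 counts of the library total, counting error only). COX7A1, the heart and muscle isoform of subunit 7A, had 10, 8 and 4 counts in siADAR1, against 16, 4 and 12 in control, too few to be tested.

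The common isoform COX7A2 changed less than its relative COX7A2L. COX7A2 had 31.5, 39.1 and 37.2 CPM in siADAR1, against 38.7, 47.4 and 48.9 CPM in control, and the groups overlapped (-0.32 ± 0.12, adjusted p 0.0417). Leaving out any of 4 libraries ended this call, with adjusted p of 0.145 and 0.08 without siADAR1 replicates 1 and 3, and of 0.13 and 0.135 without control replicates 2 and 3. The count ratio of COX7A2L to COX7A2 was 1.02, 0.741 and 0.721 in siADAR1, against 2.16, 1.72 and 1.55 in control, a pair compared after its counts had been seen.

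Of the remaining subunits of complex IV, COX5A and COX5B, which bind on the matrix side, were lower and COX7C did not pass. COX5A fell by 0.30 ± 0.08 (adjusted p 0.0101) and COX5B by 0.30 ± 0.09 (adjusted p 0.0142; 0.0633 without siADAR1 replicate 2 and 0.0708 without control replicate 2). COX7C (chromosome 5, 86617904 to 86620962), a small transmembrane subunit, had 128.1, 134 and 142.3 CPM in siADAR1, against 140.1, 167.5 and 148.5 CPM in control. It was the only tested member of complex IV that did not pass (-0.17 ± 0.09, adjusted p 0.131), and it passed without control replicate 1 (adjusted p 0.0348).

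**Figure D3:**
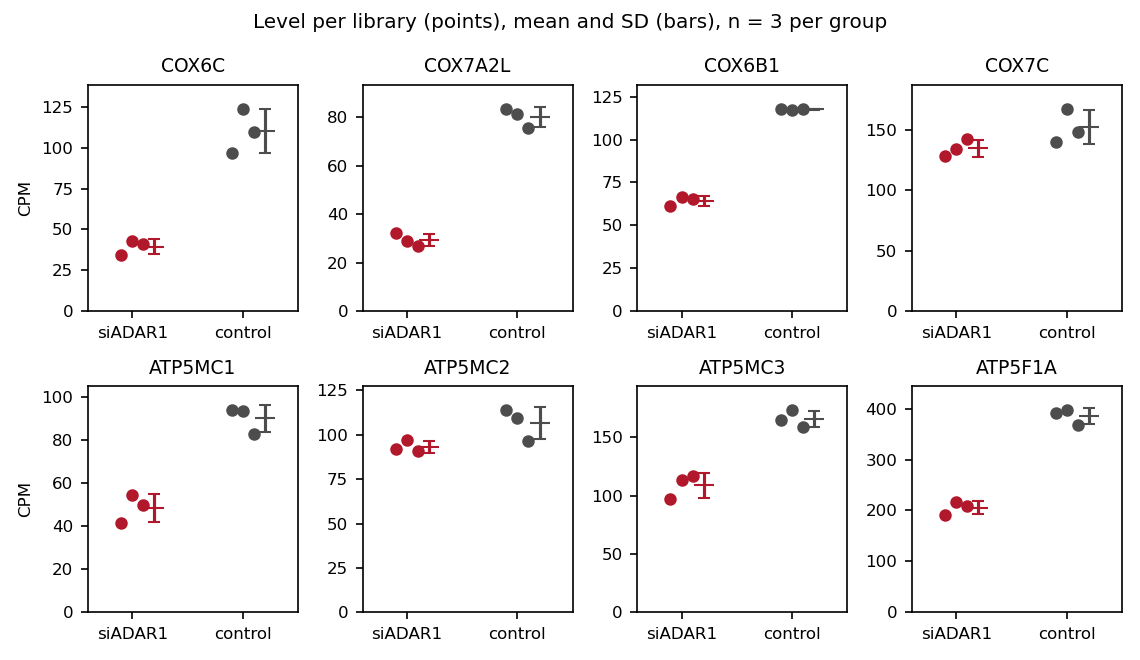
CPM of 8 members in each library (points; siADAR1 in red at left, control in grey at right) with mean and SD (bars, n = 3 per group), on axes that start at 0. The groups are apart for COX6C, COX7A2L, COX6B1, ATP5MC1, ATP5MC3 and ATP5F1A and overlap for COX7C and ATP5MC2.

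ATP synthase has a catalytic head and central stalk, together called F1, and a membrane part with a rotating ring of c subunits, held by a peripheral stalk. In F1, 4 of 5 genes were lower, against 25.0% of all tested genes and 44.7% of those at 100 CPM or more. ATP5F1A (chromosome 18, 46080248 to 46104334), the alpha subunit, had 191.5, 215.8 and 209.1 CPM in siADAR1, against 392, 396.7 and 367.4 CPM in control (-0.91 ± 0.08, adjusted p 2.15e-06). ATP5F1B, the catalytic beta subunit, fell by 0.44 ± 0.07 (adjusted p 3.23e-04), with 1060 ± 44.3 CPM in siADAR1 and 1437 ± 63.9 CPM in control (SD, n = 3 each). In the assembled enzyme alpha and beta alternate in equal number, and the alpha to beta count ratio was 0.189, 0.196 and 0.195 in siADAR1, against 0.262, 0.274 and 0.268 in control, a pair compared after its counts had been seen.

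The central stalk genes gave different values. ATP5F1C, the gamma subunit that turns inside the head, fell by 0.46 ± 0.08 (adjusted p 4.84e-04), and ATP5F1D, the delta subunit, by 0.40 ± 0.11 (adjusted p 6.95e-03). ATP5F1E, the epsilon subunit, averaged 216.8 ± 23.6 CPM in siADAR1 and 220.8 ± 22.7 CPM in control (SD, n = 3 each), with a log2 fold change of -0.03 ± 0.10 (adjusted p 0.847).

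The c ring is made of identical mature proteins that derive from 3 nuclear genes, whose products differ in the targeting peptide that is cleaved off after import. ATP5MC1 (chromosome 17, 48892765 to 48895871) had 41.5, 54.4 and 49.8 CPM in siADAR1, against 94.0, 93.7 and 82.8 CPM in control (-0.89 ± 0.11, adjusted p 2.98e-05). ATP5MC3 (chromosome 2, 175176258 to 175184607) had 96.7, 113.6 and 116.6 CPM in siADAR1, against 165, 173 and 158.8 CPM in control (-0.60 ± 0.09, adjusted p 1.49e-04). ATP5MC2 (chromosome 12, 53632726 to 53677408) had 92.2, 96.8 and 90.5 CPM in siADAR1, against 113.7, 109.5 and 96.6 CPM in control. Its groups overlapped and it did not pass (-0.19 ± 0.09, adjusted p 0.0915; 0.0398 without control replicate 3). Together the 3 genes summed to 250.7 ± 18.0 CPM in siADAR1 and 362.3 ± 21.0 CPM in control (SD, n = 3 each), or 69.2% of control.

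The c-subunit genes were also compared with each other within a library. The ATP5MC1 to ATP5MC2 count ratio was 0.450, 0.562 and 0.551 in siADAR1, against 0.826, 0.856 and 0.858 in control, a difference of -0.71 on the log2 scale. For ATP5MC3 over ATP5MC2 the ratio was 1.05, 1.17 and 1.29 in siADAR1, against 1.45, 1.58 and 1.64 in control. For ATP5MC1 over ATP5MC3 it was 0.429, 0.479 and 0.427 in siADAR1, against 0.570, 0.542 and 0.522 in control. None of the 3 ratios overlapped between groups, and each had a two-sided exact permutation p of 0.10, the smallest that 3 libraries against 3 can give. Adjusted over all 10 count ratios tested, those outside the c subunit included, the permutation p was also 0.10. As a share of the deposited c-subunit FPKM, ATP5MC1 held 31.9% ± 1.96 in siADAR1 and 40.3% ± 0.278 in control, ATP5MC2 40.4% ± 2.64 in siADAR1 and 31.2% ± 0.823 in control, and ATP5MC3 27.7% ± 1.30 in siADAR1 and 28.6% ± 1.07 in control (SD, n = 3 each). The order depends on the length used: with the principal transcript of each gene, ATP5MC1 held the largest share in both groups, 53.9% in siADAR1 and 63.4% in control.

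Reads of the 3 genes can be told apart in the coding sequence. Over the last 228 coding bases, a length set to cover the mature protein and the stop codon, ATP5MC1 and ATP5MC2 were 89.0% identical, and ATP5MC3 was 81.1% identical to each of them. Of the 25 differences between ATP5MC1 and ATP5MC2, 23 were at the last position of a codon, and of the 43 in each pair with ATP5MC3, 38 were. No unbroken run over 17 bases was shared in this stretch. The windows of 90 coding bases (GENCODE 29 transcripts) are shown because all 19 positions that differ among the 3 genes, in capitals, are at the last position of a codon.
ATP5MC1: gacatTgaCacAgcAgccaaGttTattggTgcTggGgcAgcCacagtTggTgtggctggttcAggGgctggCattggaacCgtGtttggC
ATP5MC2: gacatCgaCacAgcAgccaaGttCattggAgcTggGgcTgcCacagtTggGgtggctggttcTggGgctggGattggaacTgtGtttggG
ATP5MC3: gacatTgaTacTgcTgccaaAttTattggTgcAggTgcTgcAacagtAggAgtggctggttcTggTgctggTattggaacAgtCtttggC

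In the peripheral stalk, which keeps the head from turning with the ring, 2 of 4 genes were lower, against 25.0% of all tested genes. ATP5PO, the OSCP subunit at the top of the stalk, fell by 0.45 ± 0.15 (adjusted p 0.0193) with overlapping groups, and the call was lost without siADAR1 replicate 1 (0.075) or control replicate 2 (0.0913). ATP5PD fell by 0.28 ± 0.11 (adjusted p 0.0469), the highest adjusted p among the members called, and lost its call under 9 of 17 alternatives, among them leaving out siADAR1 replicate 1 (0.101), siADAR1 replicate 3 (0.178), control replicate 1 (0.118) or control replicate 2 (0.0591). ATP5PB and ATP5PF, which form other parts of the stalk, did not pass, at -0.07 ± 0.10 and -0.12 ± 0.11.

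Of the 5 tested small membrane subunits 2 were lower, against 25.0% of all tested genes. ATP5MPL fell by 0.51 ± 0.14 (adjusted p 7.84e-03) and ATP5MF, subunit f, by 0.31 ± 0.09 (adjusted p 9.56e-03). ATP5MG, subunit g, and ATP5MD, known as DAPIT, did not pass, at -0.26 ± 0.16 and -0.13 ± 0.11. ATP5ME, subunit e, which takes part in the pairing of ATP synthases, had 6.82, 7.58 and 7.25 CPM in siADAR1, against 6.16, 7.40 and 7.95 CPM in control (0.01 ± 0.18, adjusted p 0.97). ATP5IF1, which inhibits ATP hydrolysis by the enzyme, had 42.6 ± 0.429 CPM in siADAR1 and 43.1 ± 2.77 CPM in control (SD, n = 3 each), with a log2 fold change of -0.02 ± 0.10 (adjusted p 0.898). The copy ATP5MGL had 0 counts in all libraries, and the readthrough gene ATP5MF-PTCD1 had 0 counts in siADAR1 and 2 in a single control library.

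Some members share exonic sequence with a gene on the opposite strand. The library protocol in the labels names no step that marks strand, and the strand setting of the counting is not given. Reads in the shared part may thus not have been told apart. Such sharing was found for 5 tested members, all of complex V. Each had at least 100 shared exon bases and a partner whose counts were at least 10% of the member's. WDR77 overlaps ATP5PB by 350 bases, KCTD2 overlaps ATP5PD by 340, GABPA overlaps ATP5PF by 413, LINC00649 overlaps ATP5PO by 300 and MYL5 overlaps ATP5ME by 579. KCTD2 averaged 571 counts in siADAR1 and 839 in control, WDR77 571 in siADAR1 and 754 in control, and GABPA 424 in siADAR1 and 533 in control. LINC00649 averaged 169 counts in siADAR1 and 84 in control, and MYL5 averaged 87.3 counts in siADAR1 and 36.7 in control. The first 3 partners thus had fewer counts in siADAR1 and the last 2 more, and KCTD2 held 73.1% as many counts as ATP5PD. The part of these overlaps in the values of the members was not tested.

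Per gene length, ATP5F1B was the most abundant member, at 450.8 FPKM in siADAR1 and 612.8 FPKM in control by the deposited values. CYC1 led complex III, at 141.8 FPKM in siADAR1 and 187.1 FPKM in control, COX8A led complex IV, at 119.5 and 155.6 FPKM, and SDHB led complex II, at 35.5 and 40.9 FPKM. The deposited length counts every exon of a gene and was up to 7.46 times that of its principal transcript. With the principal transcript, a setting added after seeing the data, COX4I1 led complex IV at 227.9 FPKM in siADAR1 and 299.6 FPKM in control; in complex II SDHB still led, at 75.7 and 87.4 FPKM. Fold changes between groups do not depend on this length.

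All tested partners from mitochondrial DNA had point estimates below 0. Of the 6 mitochondrially encoded subunits of complexes III to V, 5 were lower and 0 higher, with a median log2 fold change of -0.67. Over all genes 25.0% were lower and 26.0% higher, and 44.7% were lower among those that averaged 100 CPM or more. MT-ATP6, the subunit a that lines the proton path of ATP synthase, fell by 0.84 ± 0.10 (adjusted p 2.34e-05), and averaged 2628 ± 380.3 CPM in siADAR1 and 4689 ± 332.2 CPM in control (SD, n = 3 each). Of the core subunits of complex IV, MT-CO3 fell by 0.73 ± 0.11 (adjusted p 1.84e-04), MT-CO2 by 0.66 ± 0.10 (1.96e-04) and MT-CO1 by 0.46 ± 0.10 (2.00e-03). MT-CYB, cytochrome b of complex III, fell by 0.69 ± 0.14 (2.33e-03), and MT-ATP8 did not pass (-0.48 ± 0.25, adjusted p 0.123). MT-ATP8 averaged only 6.9 ± 2.3 CPM in siADAR1 and 9.5 ± 1.9 CPM in control (SD, n = 3 each). The share at 100 CPM or more does not apply to it, and below 10 CPM 12.7% of all genes were lower. With the replicate block MT-ATP8 passed (adjusted p 0.0456), so that 6 of 6 were lower. Counts on the mitochondrial chromosome made up 3.72%, 4.18% and 4.88% of all counts in siADAR1, against 5.20%, 5.16% and 5.79% in control, so each siADAR1 share was below each control share. RNA was selected by poly-A, so these values cover polyadenylated mitochondrial transcripts.

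Most genes for assembly of the complexes did not pass. Of the complex IV assembly factors, which insert haem and copper or stabilise intermediates, 3 were lower, 4 were higher and 16 of 23 tested did not pass, with a median of -0.10, against 25.0% lower and 26.0% higher over all genes. Without control replicate 2 the number higher was 2, and with library totals alone 1 was lower. COX10, which attaches a farnesyl group to haem, rose by 0.48 ± 0.11 (adjusted p 2.58e-03), and COA3 fell by 0.51 ± 0.13 (adjusted p 5.69e-03). Of 6 complex III assembly factors, TTC19 (0.47 ± 0.11, adjusted p 2.85e-03) and UQCC1 rose, and BCS1L, which places the Rieske protein, fell by 0.44 ± 0.12 (adjusted p 8.04e-03). UQCC1 lost its call without control replicate 2 or control replicate 3 (0.052 and 0.0577). Of the 4 tested assembly factors of complex II, 0 passed in edgeR, DESeq2 or limma-voom, and 0 at an unadjusted p below 0.05. Of the 4 of complex V, 0 passed in the same 3 tools and 1 was lower at an unadjusted p below 0.05, as 1 was at an adjusted p below 0.05 with the replicate block or without control replicate 3. Of cytochrome c and 3 further proteins of complex IV, only NDUFA4 passed, with a fall of 0.33 ± 0.09 (adjusted p 7.28e-03). With library totals alone NDUFA4 lost its call (adjusted p 0.053), and 0 of these 4 genes were lower.

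Of 11 transcription factors and coactivators of respiratory genes, 7 were lower and 3 higher, against 25.0% lower and 26.0% higher over all genes. With library totals alone 3 were lower, as GABPB1 (adjusted p 0.0511), GABPA (0.0823), TFB2M (0.0583) and ESRRA (0.0631) lost their calls. TFAM, which packages and transcribes mitochondrial DNA, had 57.5, 63.0 and 67.9 CPM in siADAR1, against 102.7, 115.4 and 116.9 CPM in control (-0.83 ± 0.10, adjusted p 1.69e-05). PPARGC1A, the coactivator PGC-1α, had 6.77, 6.69 and 5.47 CPM in siADAR1, against 0.302, 0.202 and 0.985 CPM in control, a rise of 3.65 ± 0.40 (adjusted p 1.08e-05). MYC, by 0.62 ± 0.13 (adjusted p 1.78e-03), and PPRC1, by 0.36 ± 0.08 (3.30e-03), also rose. NRF1 fell by 0.86 ± 0.13 (adjusted p 1.09e-04), YY1 by 0.47 ± 0.09 (6.01e-04) and GABPA by 0.42 ± 0.13 (0.0193), and these 3 are given because their motifs are described next. GABPA lost its call when siADAR1 replicate 2 (0.0778), siADAR1 replicate 3 (0.0522), control replicate 2 (0.0862) or control replicate 3 (0.0763) was left out. The GABPA value is also uncertain because the gene shares 413 exon bases with ATP5PF, which had more counts (807.3 on average).

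**Figure D4:**
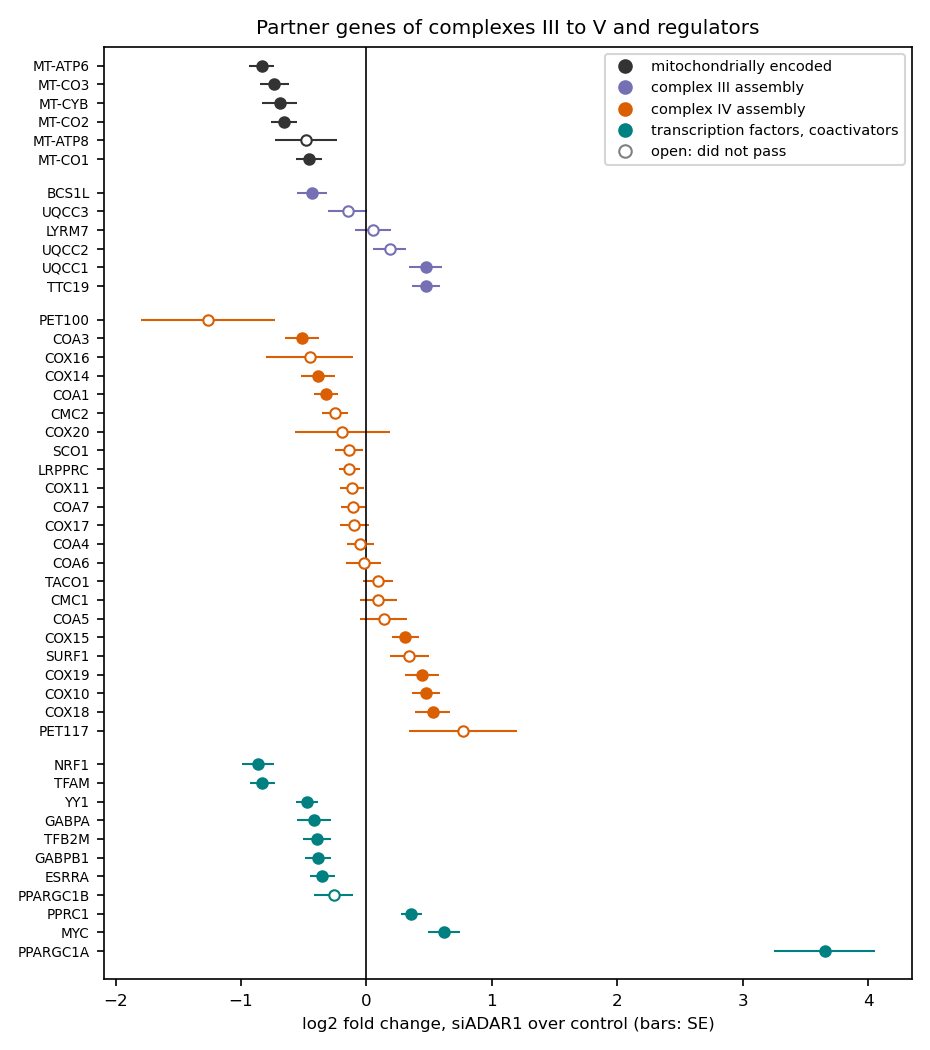
Log2 fold change, siADAR1 over control, with bars of 1 SE (x axis) for tested genes of 4 lists (y axis), filled where the edgeR adjusted p was below 0.05. PPARGC1A lies far right at 3.65, TFAM at -0.83 and NRF1 at -0.86 lie left of 0, and the assembly factors lie on both sides of 0.

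The promoters of the members were searched for motifs of these factors. RefSeq windows on GRCh38.p14, from 250 bases before to 50 after the annotated start, were matched for 38 of 51 members, 44 windows in all. The motifs were GCGC and TGCGC with any base between them for NRF1, CCGGAAG for the ETS family, to which GABPA belongs, and AAGATGGC for YY1, each on both strands. The NRF1 motif was in 25.0% of member windows, against 5.78% of all 35116 windows and 7.39% of the 22199 windows of protein-coding genes. The ETS motif was in 38.6%, against 10.3% and 12.8%, and the YY1 motif in 13.6%, against 2.89% and 3.53%. Any of the 3 was in 59.1% of member windows, against 17.0% and 21.2%. Within the members, any motif was in 14 of 24 windows of lower members (58.3%) and in 11 of 17 windows of members that did not pass (64.7%). By complex, any motif was in 3 of 3 windows for complex II, 6 of 7 for III, 6 of 16 for IV and 11 of 18 for V. A match is a run of letters, not evidence of binding.

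For each complex, the window of the member with the smallest p among those whose window held a motif, and that of the member with the p nearest 1 where it held a motif, are printed from RefSeq, 5′ to 3′ on the gene's strand, with the motifs in capitals. The first 4 belong to lower members: SDHA (chr5:218149-218315, plus strand), with the NRF1 motif at 4 places, and UQCRH (chr1:46303625-46303684, plus), COX6B1 (chr19:35648284-35648343, plus) and ATP5F1A (chr18:46098312-46098371, minus), each with an ETS motif. The last 3 belong to members that did not pass: SDHD (chr11:112086753-112086812, plus), with an NRF1 and an ETS motif, UQCRQ (chr5:132866561-132866620, plus), with an ETS motif, and ATP5ME (chr4:674262-674500, minus), with NRF1 and ETS motifs.
SDHA: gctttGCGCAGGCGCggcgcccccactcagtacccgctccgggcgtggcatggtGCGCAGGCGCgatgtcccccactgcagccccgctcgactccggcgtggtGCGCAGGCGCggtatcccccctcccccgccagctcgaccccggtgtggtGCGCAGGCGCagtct
UQCRH: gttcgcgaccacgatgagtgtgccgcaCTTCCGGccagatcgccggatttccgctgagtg
COX6B1: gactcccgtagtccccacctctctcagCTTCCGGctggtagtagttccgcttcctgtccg
ATP5F1A: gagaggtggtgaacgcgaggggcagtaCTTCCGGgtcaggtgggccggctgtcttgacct
SDHD: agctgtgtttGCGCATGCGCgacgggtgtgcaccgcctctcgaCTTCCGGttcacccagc
UQCRQ: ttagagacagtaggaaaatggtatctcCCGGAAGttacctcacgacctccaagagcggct
ATP5ME: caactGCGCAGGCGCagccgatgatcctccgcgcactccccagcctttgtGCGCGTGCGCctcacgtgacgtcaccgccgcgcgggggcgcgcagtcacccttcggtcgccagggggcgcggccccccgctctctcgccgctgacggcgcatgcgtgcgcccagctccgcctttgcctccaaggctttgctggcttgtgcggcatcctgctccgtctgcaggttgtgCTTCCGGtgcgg
These windows were printed because they held a motif, and the windows of UQCRC2, COX7A2L and COX7C held none of the 3. ATP5F1A had another window (chr18:46104178-46104477, minus), which held none either. SDHC, CYC1 and COX6C were among the members without a matched window.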

How the data were processed

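Poly-A RNA from 6 KYSE410 samples was sequenced. Per the submitters' processing notes the authors used CASAVA, fastp and HISAT2 2.0.5. The deposited table gives raw counts per gene and FPKM, with the authors' gene coordinates and lengths equal to those of GENCODE 29 for all 51 members. Which tool counted, and how it treated multiply mapped reads, is not given in these sources.

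Counts were filtered (filterByExpr, minimum count 10), scaled by TMM and fitted with edgeR 4.0.16 (robust quasi-likelihood F test, group only, two-sided). P-values were adjusted by Benjamini-Hochberg over 15294 genes, and an SE is the log2 fold change divided by the square root of F. CPM use TMM-scaled library sizes; precision is limited by counts and by 3 libraries per group. The test was tested on simulated data. Alternatives were other scalings, DESeq2 1.42.0, limma 3.58.1 (voom, and trend on log2 of the deposited FPKM plus a pseudocount of 0.1 or 1), other filters, a replicate block and left-out libraries. No pair of libraries in a group agreed within counting noise (chi-square per degree of freedom 3.95 to 18.0), so none was merged.

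The members and lists were chosen with earlier results of these data known. Values in every library are given for the 3 smallest p and the p nearest 1 in each complex, the c-subunit genes and the isoform families; of other lists, the 2 smallest p and all mitochondrial genes. Members named beyond this, the count ratios outside the c subunit, and NRF1, YY1, GABPA, GABPB1, TFB2M, ESRRA, the squamous markers, UQCC1, BCS1L, NDUFA4, WDR77, KCTD2, LINC00649, MYL5, SDHAP1 and NDUFV3 were added after values were seen. MYC and PPRC1 were also named after values were seen. A planned comparison of protein sequences was not made, as none were used here. Promoters come from RefSeq.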

Additional observations from a re-analysis of the deposited data

How the results depend on the processing

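Over 17 alternatives, 16 of the 29 lower members were lower under each (1 in complex II, 2 in III, 7 in IV and 6 in V), and 0 members were higher under any. The other 13 (SDHA, UQCRH, UQCRHL, UQCRFS1, UQCR11, COX5A, COX5B, COX7A2, COX7B, ATP5MF, ATP5MPL, ATP5PD and ATP5PO) lost the call under at least 1, and 4 that had not passed (SDHB, UQCRB, COX7C and ATP5MC2) were lower under at least 1. ATP5F1E, ATP5IF1, ATP5ME and ATP5PB, which passed under none, had log2 fold changes on both sides of 0. Scaling to library totals alone raised the median over all genes by 0.117, with 2887 genes lower and 4892 higher in place of 3831 and 3973. There 20 members were lower and 1 in complex II, and the medians were -0.233 for all members, -0.122 for II, -0.233 for III, -0.298 for IV and -0.176 for V. With FPKM, a pseudocount of 1 and no filter, 19 members were lower, 1 in complex II and 2 in III; 30727 genes were tested there. Without both libraries numbered 1 the median of complex V was -0.231. Leaving out 1 library at a time gave 20 to 30 members lower (1 to 3 in II, 3 to 7 in III, 8 to 12 in IV, 8 to 11 in V) and medians of -0.417 to -0.334 for all members, -0.300 to -0.191 for II, -0.402 to -0.306 for III, -0.491 to -0.377 for IV and -0.382 to -0.262 for V. Medians of assembly factor lists changed sign: with library totals alone to 0.0613 for complex II and 0.0199 for IV, and for complex V, which ranged from -0.185 to 0.0696 with 1 library left out, to 0.0696 without siADAR1 replicate 3 and 0.0516 without control replicate 1. The causes were not tested. Same-numbered libraries correlated at 0.251, 0.0844 and 0.106 in their deviations from the group means. In the same measure, siADAR1 replicate 1 correlated at -0.148 and -0.145 with control replicates 2 and 3. Control replicate 1 correlated at -0.130 and -0.169 with siADAR1 replicates 2 and 3. Deviations within a group sum to 0 for each gene, so negative values follow from the 0.251 between the libraries numbered 1. They are not separate support for a link between those libraries. Control replicate 2 correlated slightly better with siADAR1 replicate 3 (0.0917) than with its own number. The labels name no pairing, so the main fit used none, and what the libraries numbered 1 share was not tested. With the replicate number as a block, 29 members were lower and 0 higher, with 2, 6, 11 and 10 in complexes II to V. The counts over all genes were 4186 lower and 4396 higher. Of the members, mitochondrial subunits, assembly factors and regulators named here, only MT-ATP8 changed its call. Among assembly factors not named, the number lower went from 3 to 4 for complex IV and from 0 to 1 for complex V. At these depths members below about 10 CPM have wide errors, such as 0.21 for UQCRHL and 0.18 for ATP5ME.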

Other observations

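Complex I, which passes electrons from NADH to ubiquinone, had both lower and higher calls among its nuclear subunit genes, a list taken by gene name after the data had been seen. Of 36 genes 35 were tested, with 16 that did not pass, 18 lower and 1 higher and a median of -0.29 on the log2 scale, against 29 lower and 0 higher of 44 for complexes II to V. The share lower in complex I was thus 51.4%, against 25.0% lower and 26.0% higher over all genes. By level, 27.9% of all genes between 10 and 100 CPM were lower, and 44.7% of those at 100 CPM or more. The summed level of the complex I genes in siADAR1 was 86.9% of control, against 75.1% for complexes II to V. The difference between the 2 lists was not tested. NDUFB11 (-0.55 ± 0.10, edgeR adjusted p 3.52e-04) and NDUFS5 (-0.51 ± 0.09, adjusted p 4.63e-04) had the smallest p among the falls. NDUFV3, an accessory subunit of the NADH-oxidising part, rose: it had 48.0, 35.5 and 33.1 CPM in siADAR1, against 11.96, 12.7 and 10.6 CPM in control (1.72 ± 0.16). Without control replicate 2 the list had 11 lower and 3 higher.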
